A study of Mus musculus with 107 samples.

Results

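Lenvatinib (LEN) is an oral inhibitor of several receptor tyrosine kinases, among them the FGF receptors, KIT and RET. The genes described are 9 of that group, taken by gene symbol from the 50686 genes measured: the receptor genes Fgfr1, Fgfr2, Fgfr3 and Fgfr4, the ligand genes Fgf1 and Fgf2, Kit with its ligand gene Kitl, and Ret. They were chosen by name and role, with earlier results of these data known. The tumors were 12 mouse cancer cell lines grown under the skin of mice of matching strain, implanted in 7-week-old animals. The lines were BNL 1ME A.7R.1 (BNL) and Hepa 1-6 of hepatocellular carcinoma (HCC), Renca and RAG of renal cell carcinoma, LL/2 and KLN205 of lung cancer, CT26.WT and MC38 of colorectal cancer, 4T1 and EMT6 of breast cancer, MBT2 of bladder cancer and B16-F10 of melanoma. The hosts were BALB/cAnNCrlCrlj for BNL, RAG, Renca, 4T1, EMT6 and CT26.WT, C57BL/6NCrl for MC38 and B16-F10, C57BL/6JCrl for LL/2, C3H/HeNCrl for MBT2, DBA/2NCrl for KLN205 and C57L/J for Hepa 1-6, with male mice for both HCC lines. The RAG cells had been adapted to growth in vivo. The 3 groups were treatment-naive tumors taken at about 100 mm3 (Base, 35 tumors), tumors of mice left without treatment until day 8 (NT, 36 tumors) and tumors taken on day 8 after LEN at 10 mg/kg once daily (LEN, 36 tumors). Each model had 3 tumors in each group, except for MC38 with 2 Base tumors.

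FGF receptors are tyrosine kinases of the cell surface that bind FGFs together with heparan sulfate proteoglycans and pass the signal through the adaptor FRS2 to the RAS and ERK pathway. KIT is the receptor of stem cell factor, the product of Kitl, and is best known from mast cells, melanocytes and blood progenitors. RET is the receptor of the GDNF family of ligands, which bind it through GFRA co-receptors, and it acts in neurons and in the developing kidney.

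Expression was given as TPM, which is scaled for gene length and to the same total in every tumor, so levels of different genes can be set side by side. How deeply a tumor was sequenced cannot be read from it. The share of TPM from protein-coding genes was 37.1% to 60.6% in Base, 40.5% to 62.4% in NT and 27.6% to 66.6% in LEN tumors, and it was under 40% in 5 tumors (RAG Base replicate 3, 4T1 Base replicates 2 and 3, KLN205 Base replicate 1 and 4T1 LEN replicate 4). The abundant 7S and 7SK RNAs made up 13.6% to 38.7%. Each model is a single cell line in a single mouse strain, so line, strain and tumor type cannot be told apart. In bulk tumors, fewer cells of a type and less RNA per cell cannot be told apart either.

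The LEN tumors of BNL stood apart from the NT tumors of that model in more than the 9 genes. The summed TPM of 9 epithelial markers was between 18.1 and 46.1 in NT and between 1071 and 1256 in LEN, with Base between 166 and 211. The hepatocyte list, of 10 genes, summed to between 1.95 and 2.47 in NT and between 31.9 and 46.9 in LEN, with Fgb and Cyp7a1 at 0 in LEN and Alb, Ttr, Apoa1, Fgb and Cyp7a1 at 0 in NT. The part of this change in the results of BNL was not tested, and the means over models that change without BNL are given both ways. As a check of tumor identity, the hepatocyte list summed to between 2967 and 4247 in the 9 Hepa 1-6 tumors, and a list of 8 melanocyte genes summed to between 8877 and 10379 in the 9 tumors of B16-F10. BNL is labelled as HCC too, and its hepatocyte list was at most 46.9.

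Among the treatment-naive tumors, Fgfr1, Kit and Kitl had a mean of at least 1 TPM in all 12 models, while Fgfr4 and Ret each had a mean of at least 1 TPM in 1 model. Fgfr1 had the highest median of the receptor genes over the 107 tumors, 57.9 TPM, between 2.79 and 255. It did not lead in every model: in 4T1 Base tumors Fgfr2 had a mean of 87.8 TPM and Fgfr1 28.4, and in B16-F10 Base tumors Kit had 6.89 and Fgfr1 5.20. Kitl followed with a median of 29.4 TPM, between 0.79 and 144. The other medians were low, at 2.75 TPM for Kit, 1.64 for Fgf1, 1.46 for Fgf2, 1.21 for Fgfr3, 0.78 for Fgfr2, 0.25 for Ret and 0.02 for Fgfr4.

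**Figure D1:**
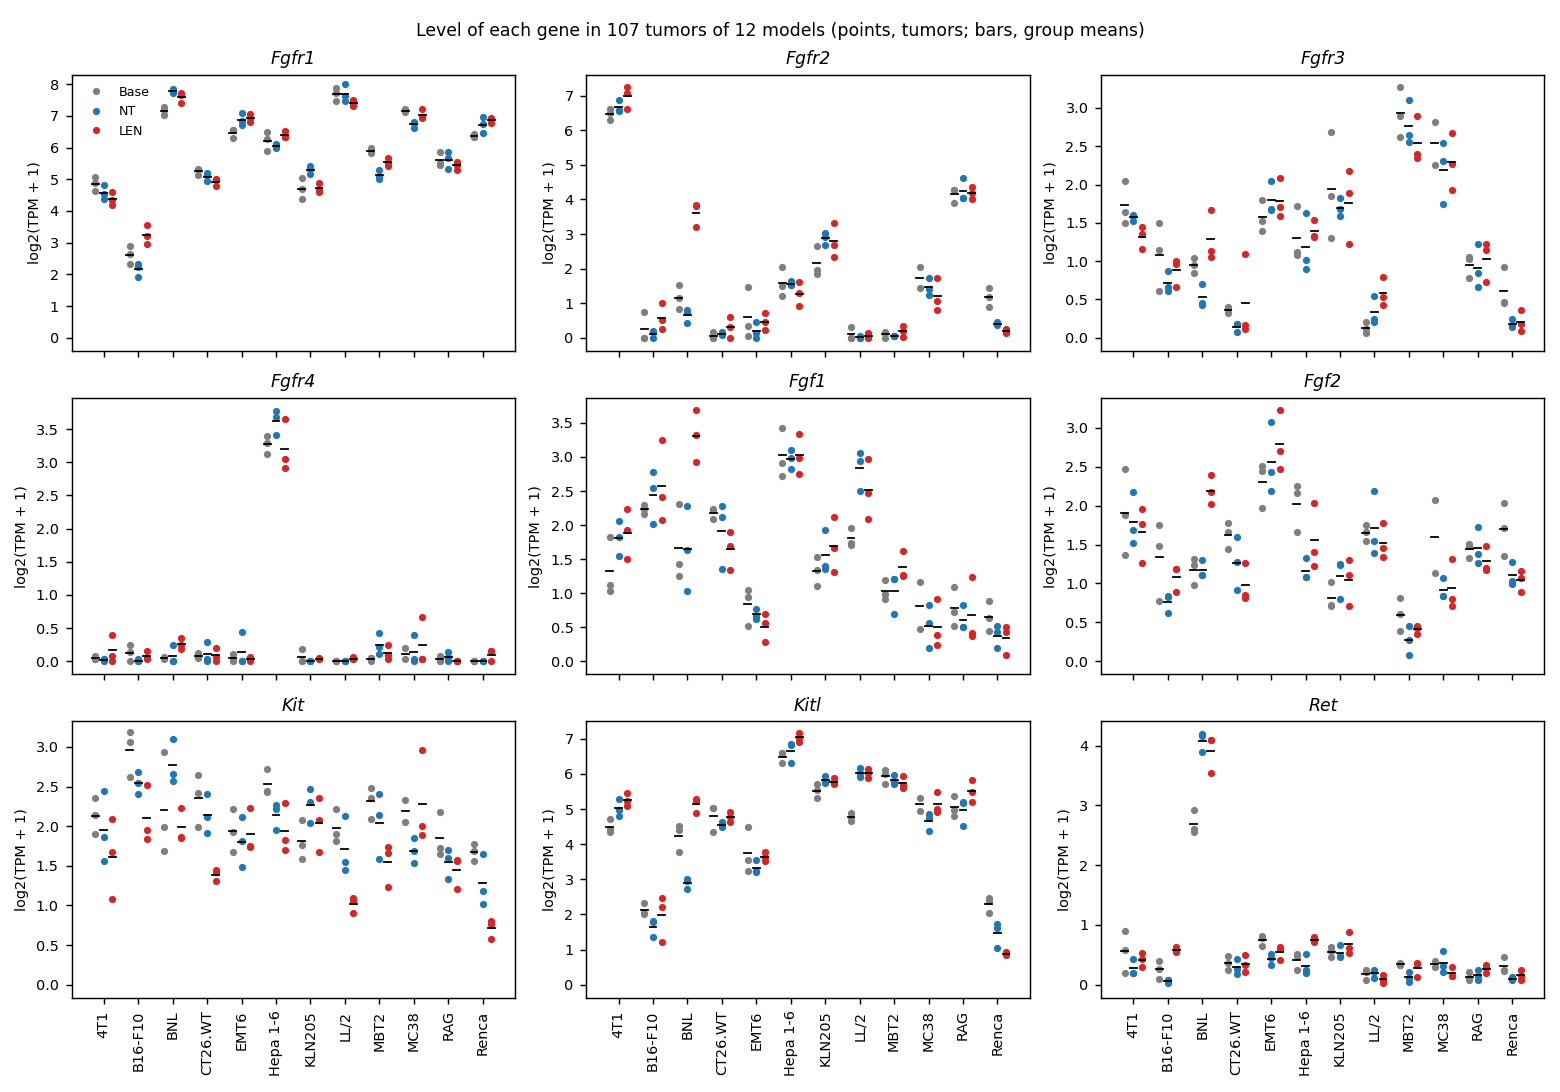
Level of each of the 9 genes in the 107 tumors, as log2(TPM + 1), by model on the x axis; gray points are Base tumors, blue NT and red LEN, and black bars are group means. Fgfr1 and Kitl are high in most models, Fgfr2 is highest in 4T1 and RAG, Fgfr4 is seen in Hepa 1-6 and Ret in BNL, and the LEN tumors of BNL lie above its NT tumors for Fgfr2, Fgf1, Fgf2 and Kitl.

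The 12 models were compared within the Base group by limma. All 7 members with a mean of at least 1 TPM differed between models, against 93.6% of all genes tested, so such a difference was the rule for any gene. With no minimum on the TPM, 68.4% of genes were called, and Fgfr4 (adjusted p = 1.95e-23) and Ret (adjusted p = 5.20e-14) were among them. The highest model mean was 39.9 times the lowest for Fgfr1, 26.6 times for Kitl, 12.5 times for Fgf1, 7.64 times for Fgf2 and 3.14 times for Kit. No ratio is given for the other 4 members, whose lowest model means were close to 0 TPM: 0.04 for Fgfr2, 0.0900 for Fgfr3, 0.0967 for Ret and 0 for Fgfr4.

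Fgfr1, the receptor gene with the highest median, was highest in LL/2, with 175, 235 and 212 TPM in the 3 Base tumors. BNL followed with 142.7 ± 11.6 TPM (SD, n = 3) and MC38 with 142.5 ± 5.69 (SD, n = 2), and the tumors of these models overlapped each other but not those of LL/2. EMT6, Renca, Hepa 1-6, MBT2 and RAG came next, from 87.9 down to 47.8 TPM, each overlapping its neighbour in the order. CT26.WT, with a mean of 37.3 TPM, stood apart from its neighbours on both sides. B16-F10 was the lowest, with 6.42, 4.00 and 5.19 TPM, and did not overlap 4T1 or KLN205 above it.

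Fgfr2, whose product binds FGF7 and FGF10 in its epithelial form and FGF1 and FGF2 more widely, was abundant in 2 models. In 4T1 the Base tumors had 77.2, 96.7 and 89.7 TPM, and in RAG 13.9, 18.5 and 18.5. The 3 KLN205 tumors had 5.35, 2.59 and 2.87 TPM. No tumor of the models below RAG reached its range, and from KLN205 downward neighbours in the order overlapped. In LL/2, MBT2 and CT26.WT the Base means were at or under 0.083 TPM. A gene-level TPM does not separate the epithelial and mesenchymal splice forms of the receptor. Esrp2, one of the splicing regulators that set the epithelial form, and Esrp1 were therefore read beside Fgfr2 in the comparison with LEN.

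Fgfr3 was low throughout, with the most in MBT2, the bladder cancer line, at 8.68, 6.43 and 5.16 TPM. MC38 had 3.79 and 6.07 TPM and overlapped MBT2. The order fell without a gap to Renca, and CT26.WT (0.290 TPM) and LL/2 (0.0900 TPM) each stood below the model before them. Fgfr4, the receptor gene of hepatocytes that answers to FGF19 family hormones, was at 9.53, 8.83 and 7.70 TPM in the Base tumors of Hepa 1-6. All 9 tumors with at least 1 TPM of Fgfr4 were Hepa 1-6 tumors, no other tumor exceeded 0.58 TPM, and 39 of the 107 tumors were listed at 0. Fgfr4 in Base moved with the hepatocyte markers over the 12 models (Pearson's r = 0.995, Spearman's rho = 0.32), a description that rests on the single model Hepa 1-6.

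The ligand genes had their own order. Fgf1, the FGF that binds all the FGF receptors, was highest in Hepa 1-6, with 9.79, 5.62 and 6.51 TPM, followed by B16-F10 with 3.49, 3.89 and 3.70 and CT26.WT with a mean of 3.55. Those 3 models stood above LL/2, and from there to Renca at 0.587 TPM neighbours overlapped. Further down the order, a BNL tumor at 3.95 TPM exceeded every tumor of B16-F10 and CT26.WT. Fgf2, a second FGF of broad receptor use, was highest in EMT6 at 2.93, 4.44 and 4.70 TPM and lowest in MBT2 with a mean of 0.527, and no neighbours in the order were apart. Both ligand genes thus stayed under 10 TPM in every Base tumor, where Fgfr1 exceeded 10 TPM in all models but B16-F10.

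Kit had the smallest of these ratios. B16-F10, the melanoma line, was first with 5.14, 8.14 and 7.38 TPM and Renca last with 2.41, 2.22 and 1.94, and each model overlapped the next. The level of Kit in Base moved with that of the melanocyte markers over the 12 models (r = 0.73, rho = 0.50) and somewhat more with that of Schwann cell and neuron markers (r = 0.77, rho = 0.57), again with B16-F10 as the single melanoma. These were the highest r of 14 marker lists. Kitl, the ligand gene, was highest in Hepa 1-6, with 94.9, 96.0 and 77.8 TPM. MBT2 (60.6 TPM) and KLN205 (45.3 TPM) overlapped each other and not their next neighbours. A RAG tumor further down the order, at 40.3 TPM, exceeded the lowest KLN205 tumor, at 38.95 TPM. Renca (3.97 TPM) and B16-F10 (3.37 TPM) were the lowest, below every tumor of the other models, so the model with the highest mean of Kit had the lowest mean of Kitl. Ret was a gene of BNL, with 6.59, 5.08 and 4.90 TPM in Base. The 9 BNL tumors were the 9 tumors with at least 1 TPM of Ret, and no tumor elsewhere exceeded 0.86 TPM.

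Promoter bases of 4 members are shown because these genes are at the center of what follows: Fgfr2, Kitl and Kit changed under LEN, and Fgfr4 was held to 1 model. They are the RefSeq promoter windows of 250 bases on GRCm38.p6, on the strand of the gene, without the bases that overlap an annotated exon. Of the 9 members, 6 had a window. Fgfr2 at chr7:130266809-130267058 (minus strand), Kitl at chr10:100015571-100015629, Kit at chr5:75574737-75574915 and Fgfr4 at chr13:55152568-55152639 (plus strand) read as follows, with matches to the motifs searched in capitals.
Fgfr2: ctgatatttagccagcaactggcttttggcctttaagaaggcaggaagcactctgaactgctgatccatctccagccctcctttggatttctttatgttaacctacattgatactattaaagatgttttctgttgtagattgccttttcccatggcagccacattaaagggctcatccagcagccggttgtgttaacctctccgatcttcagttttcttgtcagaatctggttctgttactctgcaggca
Kitl: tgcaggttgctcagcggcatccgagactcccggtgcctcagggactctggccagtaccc
Kit: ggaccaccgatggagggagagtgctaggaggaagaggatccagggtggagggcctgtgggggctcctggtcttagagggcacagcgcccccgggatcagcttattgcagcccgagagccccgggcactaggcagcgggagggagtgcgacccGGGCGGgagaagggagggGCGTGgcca
Fgfr4: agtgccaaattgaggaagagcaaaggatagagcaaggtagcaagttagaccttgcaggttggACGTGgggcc

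The motifs were the hypoxia element cores GCGTG and ACGTG, the GC box GGGCGG, the AP-1 site TGACTCA and the TATA box TATAAA, on both strands. They occur in 28.2%, 16.6%, 32.7%, 4.46% and 12.4% of the 32851 RefSeq windows of this length. In the full windows the GC box GGGCGG and the letters GCGTG were found in Kit, Kitl and Fgfr4. The letters ACGTG were found in Fgfr4 and the TATA box in Kitl, while the window of Fgfr2 held none of the motifs. The matches within the printed bases do not overlap each other, and a match is a description of the letters only. In the GENCODE annotation of GRCm38 Fgfr1 spans chr8:25513654-25575718 (plus strand), Fgfr3 chr5:33721674-33737068 (plus), Fgf2 chr3:37348346-37410108 (plus) and Ret chr6:118151745-118197718 (minus). Fgfr2 spans chr7:130162451-133123350 (minus strand), Kit chr5:75574916-75656722 (plus), Kitl chr10:100015630-100100416 (plus) and Fgfr4 chr13:55152640-55168759 (plus), all of them protein-coding. The length of the Fgfr2 span comes from 1 of its 27 annotated transcripts. The other transcripts start at or below position 130266263, so the printed bases of Fgfr2 lie in front of those and inside the span of the longest.

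The question of the next comparison is whether the genes of the targeted receptors and their ligands changed under the drug. Averaged over the 12 models, LEN tumors had more Kitl and Fgfr2 and less Kit than NT tumors, and Ret was called as higher. These were 4 of the 8 members tested (Fgfr4 was under the minimum of 1 TPM), where 23.5% of all genes were called, 13.7% higher and 9.87% lower. Kitl was higher by 0.33 ± 0.058 on the log2(TPM + 1) scale (SE, adjusted p = 1.05e-05, limma), Fgfr2 by 0.29 ± 0.059 (adjusted p = 0.000173) and Ret by 0.11 ± 0.033 (adjusted p = 0.0123). Kit fell by 0.33 on the same scale (SE 0.071, adjusted p = 0.000321). Ret was over the minimum only through BNL, where it was not higher in LEN (a mean of 16 TPM in NT and 14.3 in LEN), and its mean difference rests on models in which every tumor was under 1 TPM. The differences for Fgfr1 (+0.06, adjusted p = 0.290), Fgfr3 (+0.13, adjusted p = 0.153), Fgf1 (+0.14, adjusted p = 0.245) and Fgf2 (+0.10, adjusted p = 0.250) did not pass the threshold. The median over all genes was -0.002.

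The mean hides how unevenly the models moved. The size of the LEN effect differed between models for 7 of the 8 members (limma F test), where 35.3% of all genes did. Ret is counted among them through the same minimum. The adjusted p was 5.59e-12 for Fgfr2, 1.28e-08 for Kitl, 1.39e-07 for Fgfr1, 0.00821 for Fgf1, 0.00884 for Ret, 0.0290 for Fgf2 and 0.0344 for Kit, and 0.296 for Fgfr3. Single tumors ended 3 of these calls. That of Kit was lost on leaving out any 1 of 6 tumors of MC38 or BNL (adjusted p up to 0.114, without MC38 LEN replicate 2), that of Fgf2 any 1 of 4 tumors of BNL (up to 0.0939) and that of Fgf1 either of 2 tumors of BNL (up to 0.0837). Kit was lower in 10 of 12 models, Kitl higher in 8, Ret higher in 9 and Fgfr2 higher in 7.

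Which models carry each mean was seen by leaving out 1 model at a time. Without BNL, the mean effect on Fgfr2 was 0.04 (adjusted p = 0.678) and that on Kitl 0.16 (adjusted p = 0.0632), and Fgf1 turned to -0.003. Without B16-F10 the mean effect on Ret was 0.07 (adjusted p = 0.180), and without Hepa 1-6 it was 0.08 (adjusted p = 0.106). Fgfr1 moved from 0.06 to -0.03 without B16-F10 and to 0.12 without KLN205, where it passed the threshold (adjusted p = 0.0342). Ret was under the minimum without BNL. Kit kept its call whichever model was left out, with a mean between -0.41 and -0.29.

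Each model was also compared alone, 3 LEN against 3 NT tumors, with limma across all genes of that model. Of 108 pairs of a member and a model, 67 were over the minimum and 6 were called, in BNL and B16-F10, while 4.85% of all gene and model pairs were called. In this setting the other 10 models had no member past the threshold, and p-values here measure only the spread between these tumors. The range of the 3 LEN tumors lay above that of the 3 NT tumors in 13.5% and below it in 10.9% of all gene and model pairs. Fgfr1 and Kitl each lay above in 4 of 12 models and below in 1, and Kit lay below in 4 and above in 1.

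**Figure D2:**
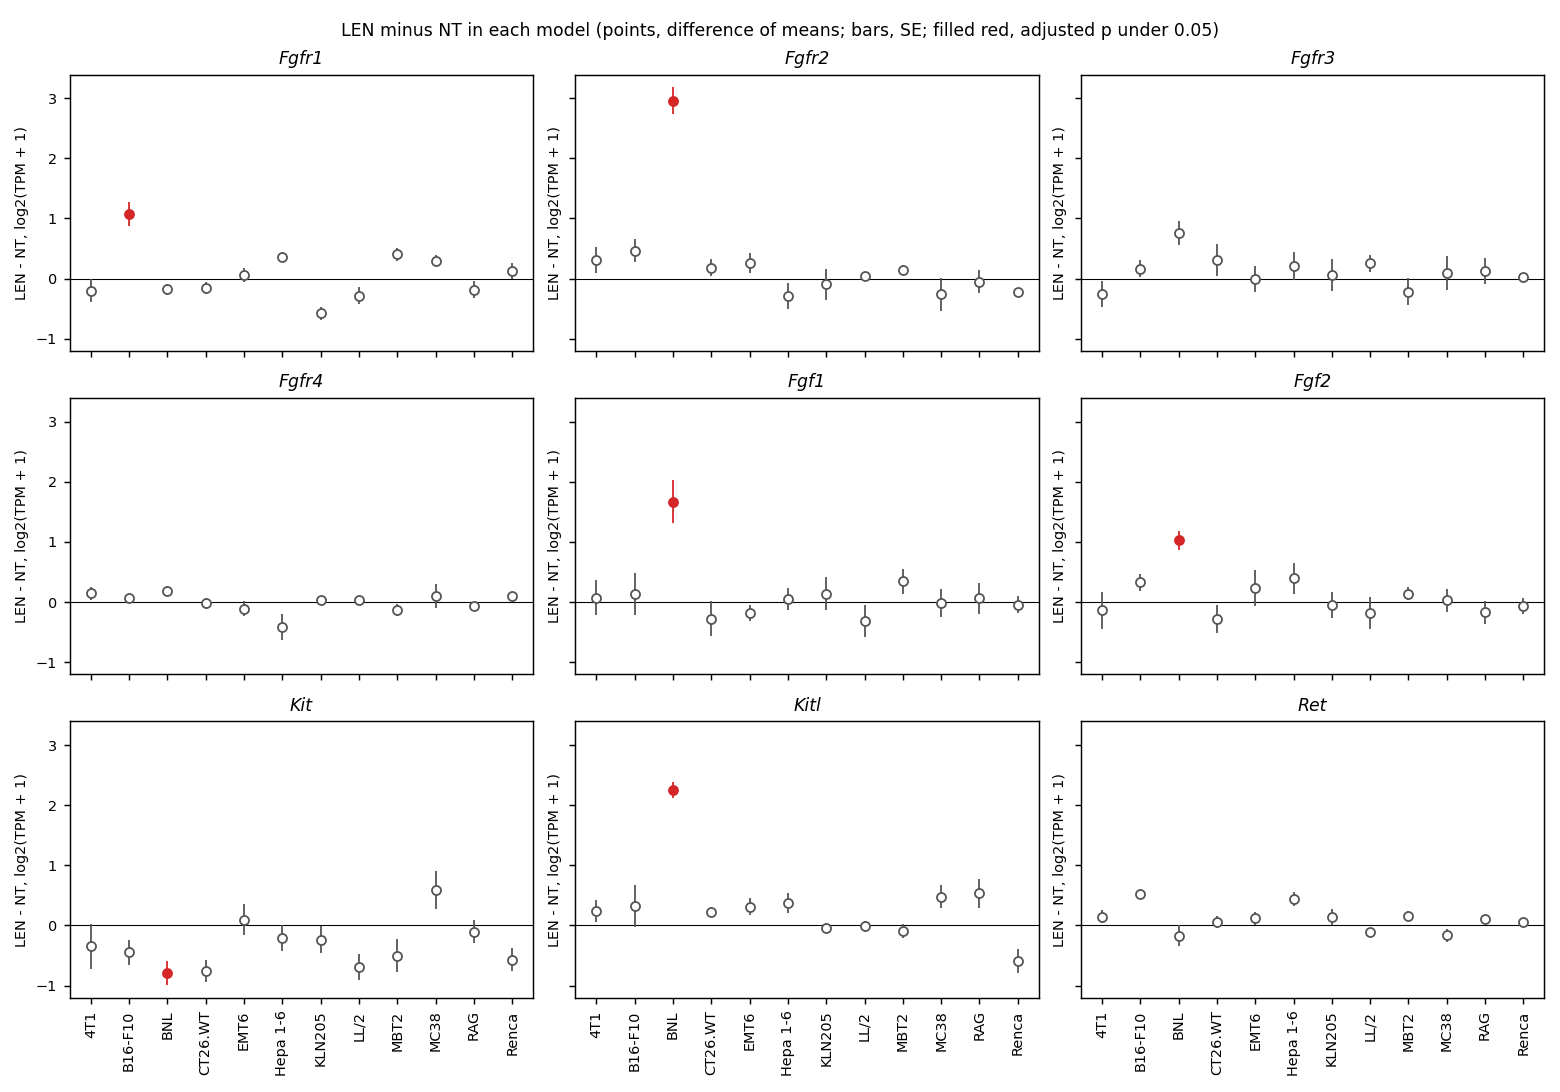
LEN minus NT in each model for the 9 genes, as a difference of means of log2(TPM + 1) with its SE, with models on the x axis. Filled red points had an adjusted p under 0.05 in the limma fit of that model, open points did not or were under the minimum mean of 1 TPM, where the difference comes from the fit with no minimum. The filled points are 5 genes in BNL and Fgfr1 in B16-F10.

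BNL was the model in which the group changed most. Of the 6 members with an NT mean of at least 1 TPM there, 4 were called, 3 higher and 1 lower, and Fgfr2, which was over the minimum through its LEN tumors alone, was called higher too. Of all genes tested in BNL, 31.5% were called, 26.3% higher and 5.21% lower. Fgfr2 was at 0.34, 0.68 and 0.76 TPM in the NT tumors and at 13.2, 13.1 and 8.27 in the LEN tumors. Every LEN tumor was above every NT and every Base tumor (1.2, 0.78 and 1.87 TPM). The difference was 2.96 ± 0.21 (SE, log2(TPM + 1), adjusted p = 0.000155), a 19.4-fold ratio of the mean TPM. By the mean of its LEN tumors, 11.5 TPM, BNL came next below RAG with 17.2 TPM.

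Kitl was at 7.03, 6.69 and 5.56 TPM in the NT tumors of BNL and at 36.3, 38.2 and 28.7 in LEN. The Base tumors, with 22.0, 12.7 and 20.1 TPM, lay between both groups without overlap. The LEN minus NT difference was 2.25 ± 0.13 on the log2(TPM + 1) scale (adjusted p = 7.49e-05), a 5.35-fold ratio of means. Both FGF ligand genes rose as well. Fgf1 went from 2.09, 3.85 and 1.04 TPM to 11.9, 6.58 and 9.05, a 3.94-fold ratio (adjusted p = 0.0105, limma), and Fgf2 from 1.46, 1.15 and 1.16 TPM to 3.06, 3.51 and 4.24, a 2.87-fold ratio (adjusted p = 0.00390). The LEN tumors were above all NT and Base tumors for both genes.

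Kit moved the other way in BNL. Its NT tumors had 7.59, 5.34 and 4.92 TPM and its LEN tumors 2.61, 2.65 and 3.71, with no overlap, and the difference was -0.79 ± 0.19 (log2(TPM + 1), adjusted p = 0.0184). The Base tumors, at 2.21, 2.96 and 6.68 TPM, overlapped both groups. The call was lost without LEN replicate 2 (-0.73, adjusted p = 0.0534) or LEN replicate 4 (-0.73, adjusted p = 0.0559). Fgfr1 and Ret, the most abundant receptor genes among the members in BNL, did not pass the test. Fgfr1 was at 208, 228 and 216 TPM in NT and 168, 210 and 200 in LEN (-0.18, adjusted p = 0.173), and Ret at 16.9, 13.8 and 17.3 TPM in NT and 16.2, 16 and 10.7 in LEN (-0.17, adjusted p = 0.481). Fgfr1 in BNL did pass as lower when TPM was rescaled by the upper quartile (-0.38, adjusted p = 0.0165) or over protein-coding genes (-0.31, adjusted p = 0.0238). The median gene of BNL was 0.17 higher in LEN than in NT and -0.011 after upper-quartile rescaling. The 5 calls of BNL held under both rescalings and when 7S and 7SK RNA were left out.

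**Figure D3:**
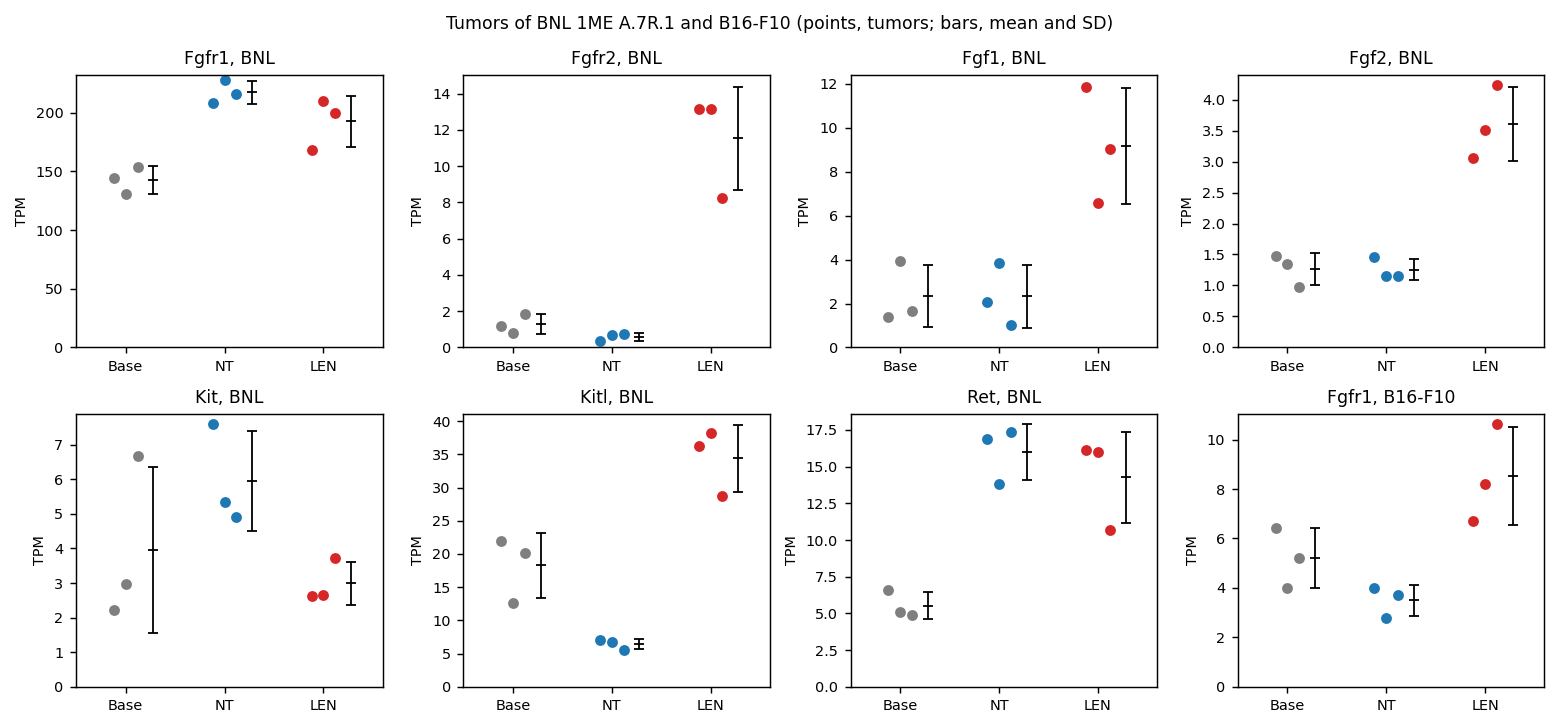
TPM of 7 members in the BNL tumors and of Fgfr1 in the B16-F10 tumors, by group (Base, NT, LEN) on the x axis; points are tumors, and bars are mean and SD of 3. LEN tumors lie above NT tumors without overlap for Fgfr2, Fgf1, Fgf2 and Kitl in BNL and for Fgfr1 in B16-F10, and below for Kit in BNL.

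Fgfr3 of BNL had a mean under 1 TPM. With no minimum it was called higher (0.34, 0.37 and 0.63 TPM in NT and 2.17, 1.2 and 1.07 in LEN, adjusted p = 0.0459), where 15.7% of all genes in BNL were called higher. Beside these changes in BNL, 5 of 5 epithelial markers tested rose, 3 of 3 hepatocyte markers rose, 6 of 6 skeletal muscle markers rose and 8 of 8 endothelial markers fell. The summed skeletal muscle markers were between 26.4 and 98.0 TPM in NT and between 1408 and 2027 in LEN, and the 8 endothelial markers between 162 and 185 in NT and between 72.8 and 85.5 in LEN. Of 14 marker lists, 10 were higher in LEN than in NT of BNL without overlap of their mean log2(TPM + 1), and 2 were lower. The higher ones included adipocyte (+1.99), T and NK cell (+0.77) and renal epithelium markers (+0.67). Their part in the results for the 9 genes was not tested.

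B16-F10 was the other model with a call. Fgfr1, which was lowest in this model, had 3.99, 2.79 and 3.71 TPM in NT and 6.72, 8.20 and 10.7 in LEN, with no overlap. The difference was 1.07 ± 0.18 (log2(TPM + 1), adjusted p = 0.0151), a 2.44-fold ratio of means, where 8.57% of all genes in B16-F10 were called higher. All 3 LEN tumors exceeded all Base tumors, the highest of which had 6.42 TPM. Ret, at 0.05, 0.06 and 0.02 TPM in NT and 0.55, 0.46 and 0.48 in LEN, was called with no minimum (0.52 ± 0.057, adjusted p = 0.0111), where 4.54% of genes were called higher, but stayed under 1 TPM in every tumor. In the same tumors the summed fibroblast markers were between 155 and 182 TPM in NT and between 510 and 667 in LEN, and the macrophage markers between 60.3 and 89.0 in NT and between 196 and 280 in LEN. The melanocyte markers overlapped, at 8877 to 10379 TPM in NT and 9691 to 9924 in LEN. Of 14 marker lists, 10 were higher in LEN than in NT of this model without overlap of their mean log2(TPM + 1), and 2 were lower. Skeletal muscle markers differed most, with sums of 1.06 to 16 TPM in NT and 108 to 170 in LEN, and T and NK cell markers went from between 0.83 and 2.97 to between 11.5 and 14.3. Endothelial markers were lower, at 42.5 to 60.0 TPM in NT and 24.8 to 28.2 in LEN. The part of these cell types in the rise of Fgfr1 was not tested.

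To ask in which models the LEN effect on a member differed from the rest, the effect in each model was set against the mean effect in the other 11. This test was added after the data were seen. Of 96 pairs, 9 were called, where 5.43% of all pairs of a gene and a model were. In BNL these were Fgfr2 (+2.91, adjusted p = 1.54e-16), Kitl (+2.09, adjusted p = 8.42e-12), Fgf1 (+1.67, adjusted p = 1.49e-05), Fgf2 (+1.00, adjusted p = 0.000772) and Fgfr3 (+0.69, adjusted p = 0.0258), where 19.7% of all genes were called higher in BNL than in the other models. B16-F10 had Fgfr1 (+1.10, adjusted p = 1.53e-07), against 7.54% of genes. Ret was called there too (+0.45, adjusted p = 0.00893), but it was tested only through its level in BNL, and its tumors in B16-F10 were all under 1 TPM. The remaining pairs were lower than elsewhere: Fgfr1 in KLN205 (-0.70, adjusted p = 0.00524), against 1.01% of genes, and Kitl in Renca (-1.0, adjusted p = 0.00107), against 4.31%. The Kit effect in BNL was not called in this test, so a fall of Kit particular to BNL was not seen.

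Fgfr1 lay above its NT range in Hepa 1-6, MBT2 and MC38 as well as in B16-F10. It went from 62.5, 67.7 and 63.5 TPM to 79.4, 80.4 and 91.0 in Hepa 1-6 (+0.37, adjusted p = 0.0911), from 31.3, 33.2 and 38.5 to 50.1, 41.8 and 45.2 in MBT2 (+0.40, adjusted p = 0.210) and from 111, 109 and 98.1 to 125, 149 and 120 in MC38 (+0.30, adjusted p = 0.369). None of the 3 passed within its model, and in MBT2 and MC38 the Base tumors were above the NT tumors too. In the models with the most Fgfr2, LEN gave no call: 4T1 was at 94.8, 92.4 and 117 TPM in NT and 134, 97.3 and 151 in LEN (adjusted p = 0.736), and RAG at 15.6, 23.4 and 15.4 in NT and 15.1, 19.5 and 17.2 in LEN (adjusted p = 0.962). Fgfr4 in Hepa 1-6 was at 11.9, 12.7 and 9.61 TPM in NT and 6.53, 7.25 and 11.6 in LEN, with an overlap by 1 tumor (-0.42, adjusted p = 0.282). Ret in Hepa 1-6 was at 0.18, 0.15 and 0.43 TPM in NT and 0.64, 0.68 and 0.74 in LEN, without overlap and under 1 TPM.

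KLN205 and Renca went against the mean for these genes. Fgfr1 in KLN205 was at 35, 38.9 and 42.1 TPM in NT and 28.3, 23.2 and 25.1 in LEN, without overlap (-0.58, adjusted p = 0.101 within the model). The Base tumors of KLN205 ranged from 19.61 to 32.04 TPM, with a mean of 25.54 against 25.543 in LEN. All LEN tumors of this model thus lay within the Base range of Fgfr1, and all NT tumors lay above it. Kitl in Renca was at 1.07, 2.33 and 2.08 TPM in NT and 0.92, 0.79 and 0.83 in LEN, also without overlap (-0.59, adjusted p = 0.126 within the model). In Hepa 1-6, the model with the most Kitl, the gene was at 116, 112 and 78.5 TPM in NT and 130, 119 and 144 in LEN, without overlap, and the difference did not pass (+0.37, adjusted p = 0.220).

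Kit was the member whose fall was spread over models. In CT26.WT it was at 3.32, 4.30 and 2.78 TPM in NT and 1.68, 1.72 and 1.47 in LEN. In LL/2 the values were 1.92, 1.72 and 3.39 TPM in NT and 1.14, 0.87 and 1.08 in LEN, and in Renca 1.27, 1.02 and 2.14 in NT and 0.70, 0.49 and 0.75 in LEN. The LEN tumors lay below the NT tumors without overlap in these 3 models and in BNL, although within the model only BNL passed (CT26.WT -0.76, adjusted p = 0.333, LL/2 -0.69, adjusted p = 0.201, Renca -0.57, adjusted p = 0.139). Kit was not lower in MC38 and EMT6. MC38 had 2.21, 2.6 and 1.91 TPM in NT and 6.78, 2.70 and 2.99 in LEN (+0.59, adjusted p = 0.509). One LEN tumor of MC38 was well above the other two. In EMT6 the groups overlapped, at 1.79, 2.51 and 3.35 TPM in NT and 3.69, 2.36 and 2.32 in LEN.

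Markers of mast cells, which carry KIT, and of endothelial cells were read beside Kit. The mean of 8 endothelial markers was lower in LEN in 12 of 12 models, without overlap of the tumors in 11, with differences between -1.36 and -0.33 on the log2(TPM + 1) scale. The mean of 9 mast cell markers was higher in 7 models, 2 of them without overlap, and lower in 5, 2 of them without overlap. In BNL, where Kit was lower in LEN, the summed mast cell markers were between 35.5 and 39.9 TPM in NT and between 94.3 and 117 in LEN, with 5 of 7 tested rising and Gata2 falling. In MC38, where Kit was higher in LEN, they were between 21.7 and 25.5 TPM in NT and between 21.8 and 27.7 in LEN. The mast cell mean was lower without overlap in MBT2 (-0.98) and LL/2 (-0.49). Kit was lower in both, without overlap in LL/2 and with overlap in MBT2 (4.31, 3.40 and 2.01 TPM in NT and 2.34, 2.16 and 1.34 in LEN). Other lists were lower in LEN as well. The mean of 6 pericyte and smooth muscle markers was lower in LEN in 12 of 12 models, without overlap in 10, and that of 6 macrophage markers was lower in 8 models, without overlap in 7. Over the 12 models the change of Kit had a Pearson's r of 0.60 with that of the endothelial mean. The r was -0.02 with the mast cell, -0.09 with the pericyte and smooth muscle and 0.06 with the macrophage mean. Kit was in none of these lists, and the part of any of the cell types in its fall was not tested.

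**Figure D4:**
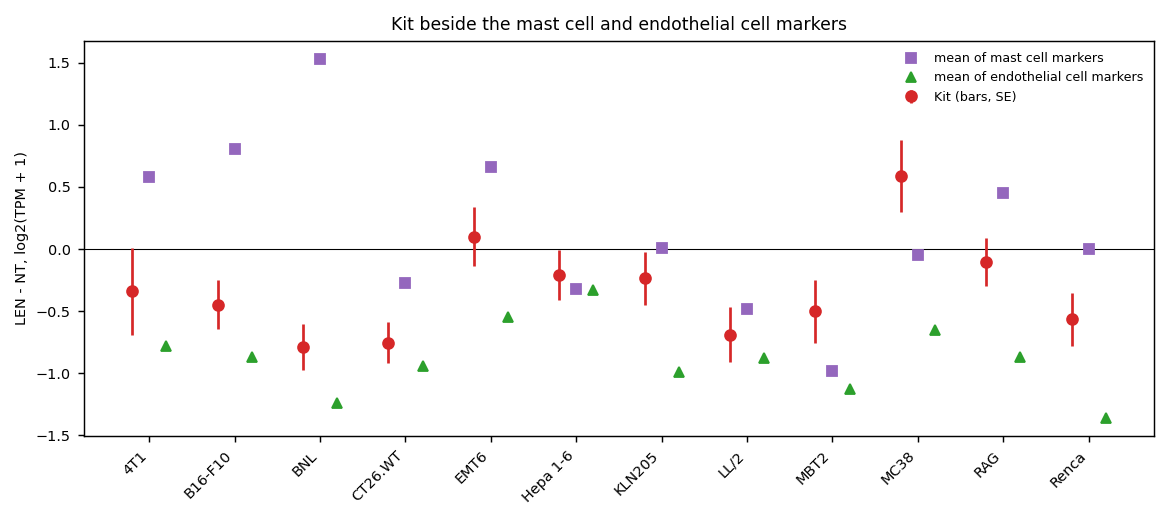
LEN minus NT in each of the 12 models for Kit (red, with SE) and for the mean over mast cell markers (purple) and endothelial markers (green), as differences of log2(TPM + 1). Endothelial markers lie below 0 in all 12 models and Kit in 10, while mast cell markers lie on both sides of 0 and at their highest in BNL.

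The last comparison asked how the members changed as untreated tumors grew from about 100 mm3 to day 8. It shares the NT tumors with the LEN comparison, so the signs of both are not independent. Averaged over 12 models, 2 of 8 members passed, both lower in NT, where 28.5% of all genes passed and 11.5% were lower. Fgf2 fell by 0.24 on the log2(TPM + 1) scale (SE 0.071, adjusted p = 0.00726, limma), lower in 8 of 12 models, and Fgfr3 by 0.17 (SE 0.067, adjusted p = 0.0448), lower in 10. The call of Fgf2 was lost without Hepa 1-6 (adjusted p = 0.0518). That of Fgfr3 was lost on leaving out any 1 of 7 models, with adjusted p up to 0.120, or any 1 of 37 tumors. Kit (-0.17, adjusted p = 0.0646) and Kitl (-0.14, adjusted p = 0.0885) did not pass, but did so under 3 ways of rescaling, with adjusted p between 0.0142 and 0.0262 for Kit and between 0.00720 and 0.0182 for Kitl. Without BNL, Kit passed at -0.23 (adjusted p = 0.00721), Fgf2 was at -0.27 (adjusted p = 0.00832), Fgfr3 at -0.15 (adjusted p = 0.120) and Kitl at -0.03 (adjusted p = 0.757).

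The change with time differed between models for 6 of the 8 members, where 66.5% of all genes did. The adjusted p was 1.36e-09 for Ret, 2.07e-07 for Kitl, 1.94e-06 for Fgfr1, 0.0148 for Fgfr2, 0.0284 for Fgf2 and 0.0416 for Fgf1. Ret was over the minimum only through BNL, so its result restates the rise in that model. The call of Fgf1 was lost on leaving out any 1 of 15 tumors (adjusted p up to 0.125) and that of Fgf2 either of 2 (up to 0.0532). In single models, 13 of 96 pairs of a member and a model passed, where 13.9% of all pairs did, so the members were called about as often as any gene. Of the 13, 1 had a mean under 1 TPM in both groups, Ret in EMT6.

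BNL again held the largest of these. Ret was at 6.59, 5.08 and 4.90 TPM in Base and 16.9, 13.8 and 17.3 in NT, with no overlap, a 2.90-fold ratio of means (+1.38, adjusted p = 1.28e-12, limma). Fgfr1 went from 144, 130 and 153 TPM to 208, 228 and 216 (+0.60, adjusted p = 0.00268). Kitl fell from a mean of 18.3 TPM to 6.43 (adjusted p = 4.79e-06), so that the NT tumors were below both the Base and the LEN tumors. In LL/2 the ligand genes rose: Kitl from 24.2, 28.5 and 26.2 TPM to 58.9, 64.2 and 71.0 (+1.27, adjusted p = 3.61e-05) and Fgf1 from 2.28, 2.34 and 2.89 TPM to 7.36, 6.65 and 4.64 (+1.03, adjusted p = 0.00403). Kitl of the LL/2 tumors with LEN was at 58.6, 64.5 and 69.5 TPM, overlapping NT, with 1 tumor just below the lowest NT tumor.

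Fgfr1 did not move one way with time. It was higher in NT in KLN205 (25.5 to 38.6 TPM, adjusted p = 0.00334) and EMT6 (87.9 to 117 TPM, adjusted p = 0.0414) and lower in MBT2 (58.4 to 34.3 TPM, adjusted p = 0.0118). Fgfr2 was higher in KLN205 (+0.72, adjusted p = 0.0139) and lower in Renca (-0.77, adjusted p = 0.0202), where Kitl was lower too (-0.83, adjusted p = 0.00797). The remaining calls were a lower Fgf2 in Hepa 1-6 (2.16, 3.77 and 3.46 TPM to 1.11, 1.11 and 1.51, adjusted p = 0.00825) and a lower Ret in EMT6 (-0.32, adjusted p = 0.0379), with every tumor under 1 TPM.

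**Figure D5:**
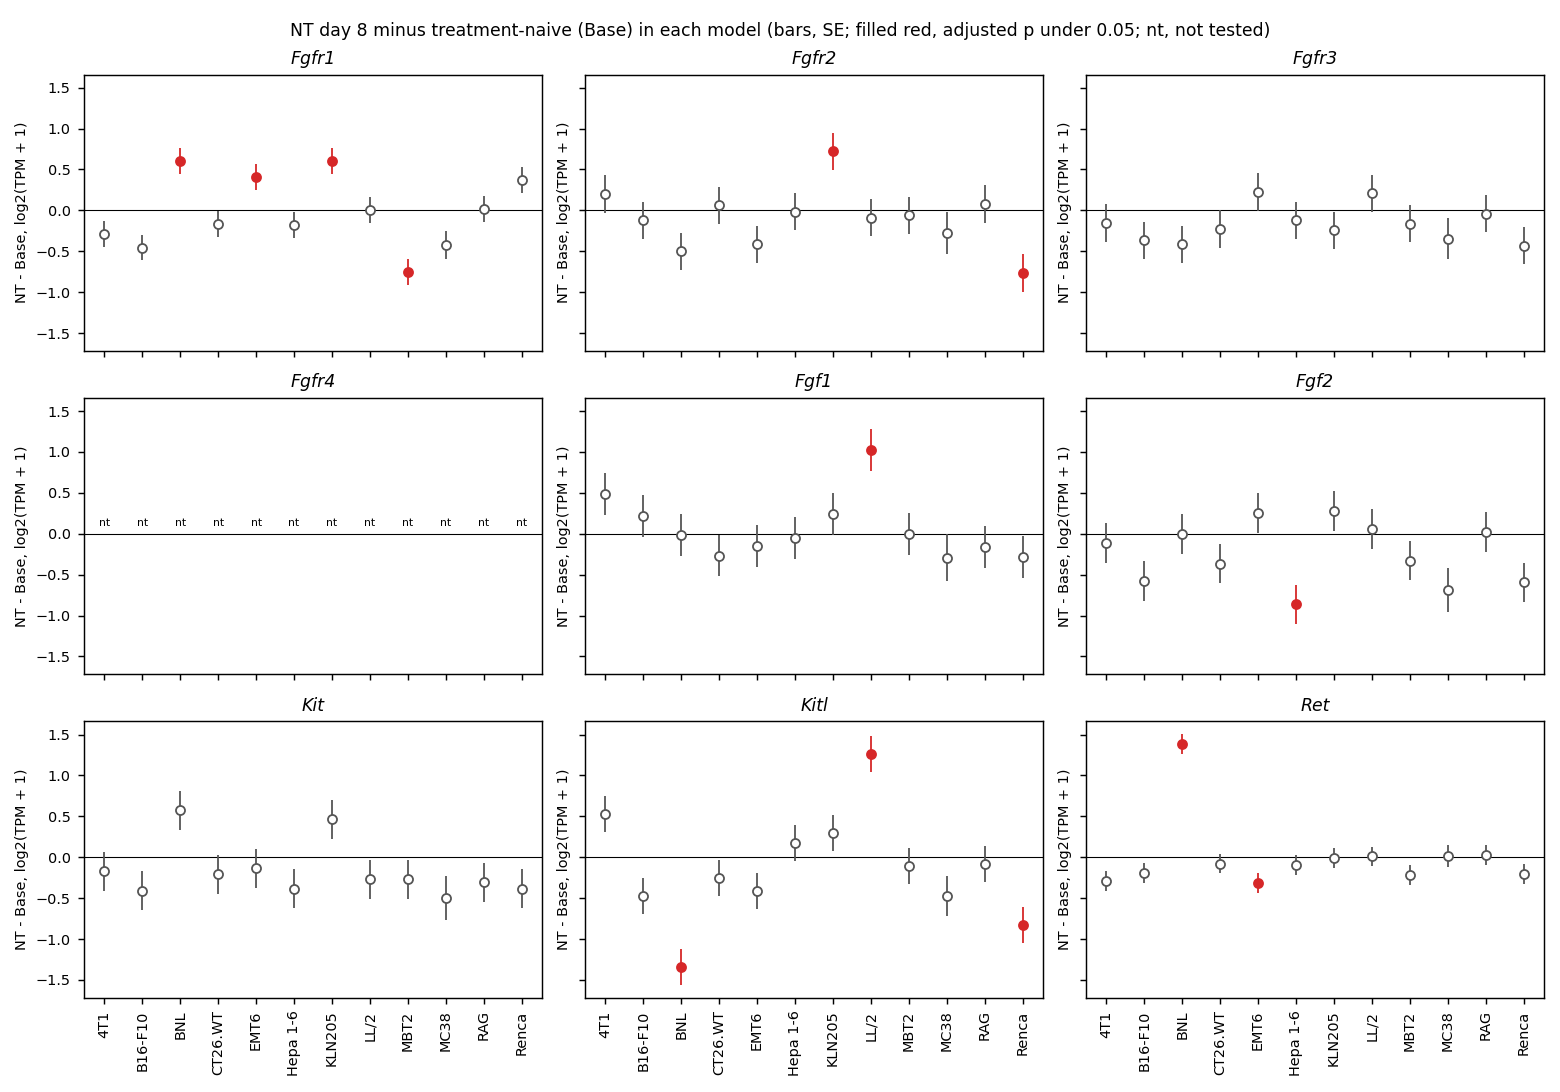
NT on day 8 minus treatment-naive in each model, as a difference of means of log2(TPM + 1) with its SE; filled red points had an adjusted p under 0.05 in the limma fit of the 71 untreated tumors, and nt marks a gene that was not tested. Ret and Fgfr1 rise and Kitl falls in BNL, while Kitl and Fgf1 rise in LL/2.

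The genes around these receptors were read from lists, with the LEN minus NT mean over 12 models, where 23.5% of all genes were called, 13.7% higher and 9.87% lower. Of 20 other FGF genes, 7 were tested and 1 was called, Fgf13 (+0.29, adjusted p = 0.00139), an intracellular member of the family. Without BNL it was at 0.14 (adjusted p = 0.184). The most abundant was Fgf7, a ligand of the epithelial form of FGFR2, at 5.16 TPM and not called. The list of FGF co-receptors and extracellular regulators had 7 of 16 tested genes higher and 1 lower, with a median of 0.09. The heparan sulfate proteoglycan genes Sdc4 (+0.45, adjusted p = 3.28e-13) and Sdc1 (+0.28, adjusted p = 1.64e-11) were higher in 12 of 12 models, and Gpc1 (+0.18, adjusted p = 0.000153) in 9, as was Flrt3 (+0.18, adjusted p = 0.00593), a partner of FGFR1. Without BNL, Flrt3 was at 0.08 (adjusted p = 0.315), and Sdc4, Sdc1 and Gpc1 passed at 0.40, 0.26 and 0.15. Fgfrl1 (+0.11, adjusted p = 0.227) and Sulf2 (-0.20, adjusted p = 0.0694), which had been called higher and lower, also lost their calls without BNL. Sdc4, at a mean of 127 TPM, was also the most abundant of the list.

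Of the 14 genes on the list of adaptors and other signaling genes of the receptors, 1 was higher and 2 were lower, a share close to that of all genes. Frs2, the main adaptor of FGF receptors, was higher (+0.19, adjusted p = 4.10e-05), while Sh2b3 (-0.12, adjusted p = 0.0133), a brake on KIT signaling, and Gab1 (-0.09, adjusted p = 0.0264) were lower. The mean of Frs2 again had BNL behind it: there it went from 27.5 to 30.8 TPM in NT to 112 to 132 in LEN. Without BNL the mean of Frs2 was 0.02 (adjusted p = 0.773), that of Gab1 -0.09 (adjusted p = 0.0666) and that of Sh2b3 -0.14 (adjusted p = 0.0150). Shc1, the most abundant adaptor gene at 63.1 TPM, was not called. The 20 feedback and target genes of the ERK pathway went both ways, with 6 higher and 4 lower, against the same 13.7% and 9.87% of all genes. Dusp4 (+0.50, adjusted p = 4.78e-10), Fos (+0.48, adjusted p = 3.29e-06) and Fosl1 (+0.34, adjusted p = 8.24e-06) were higher and Spry4 (-0.34, adjusted p = 2.37e-09), a Sprouty inhibitor of the pathway, lower. All 4 passed without BNL, with Dusp4 at 0.25, Fos at 0.43, Fosl1 at 0.36 and Spry4 at -0.31. Ccnd1, at 175 TPM, was not called.

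Among the ligands and co-receptors of RET, 1 of 6 tested was called, no more than the share of all genes, Artn (-0.14, adjusted p = 0.0415, and 0.193 without BNL), and Gdf15 was the most abundant at 22.7 TPM. The 4 other kinase targets of LEN included 3 that fell: Flt4 (-0.74, adjusted p = 1.14e-20), Kdr (-0.71, adjusted p = 3.65e-16) and Flt1 (-0.43, adjusted p = 7.74e-07), the VEGF receptor genes, with Pdgfra (+0.02, 27.7 TPM) not called. VEGF receptor genes are expressed by endothelial cells, whose 8 markers were lower in LEN in 12 of 12 models by their mean (-1.36 to -0.33), and the part of these cells in the fall was not tested. The effect on Flt1 differed between models (adjusted p = 2.13e-07). Flt1 was called lower in B16-F10 and Renca and higher in BNL, from between 6.93 and 7.94 TPM in NT to between 15.4 and 18.5 in LEN (+1.13, adjusted p = 0.000388). Without BNL the means were -0.66 for Flt4, -0.68 for Kdr and -0.58 for Flt1, all called. Their list had a median of -0.57, against 0.12 for the 8 members tested and -0.002 for all genes. Of the splicing regulators, Esrp2 was higher (+0.30, adjusted p = 0.00421, and +0.13 with adjusted p = 0.325 without BNL), and in BNL it went from 0.95 to 2.43 TPM in NT to 8.86 to 11.2 in LEN, while Esrp1 was at 0 in all BNL tumors of both groups.

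The genes whose level was most like that of each member were named by Pearson's r over the 36 group means of log2(TPM + 1). These means share models, so r is a description. For Fgfr1 the nearest was Gm16159 (r = 0.92), an antisense RNA within Fgfr1, and as the strand of the libraries was not given, reads of both cannot be told apart. It was followed by Sipa1 (0.83) and Gm42820 (0.82). Fgfr2 was nearest to Tslp (0.80), Dll1 (0.80) and Als2cl (0.79), and Fgfr3 to En1 (0.87), Gm43654 (0.82) and Ppp4c (0.81). For genes held to 1 model r was near 1 by that model alone. Fgfr4 went with Iyd, Tmed6 and Ttr (each 0.997), whose Spearman's rho was between 0.41 and 0.53, and Ret with Gad1, Cacna1h and Mn1 (each 0.97), with a rho between 0.37 and 0.60.

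Fgf1 was nearest to Gm37422 (0.83), Itgav (0.82) and Zfp719 (0.80). Gm37422 is annotated as an antisense RNA too, and whether it overlaps Fgf1 was not checked. Fgf2 was nearest to Shc1 (0.80), Mta3 (0.78) and Ssbp3 (0.76). Kit had Itpkb (0.77), Zfp445 (0.76) and Zfp146 (0.74), and Kitl had Itga6 (0.83), Bcl2l11 (0.81) and Adss (0.80).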

How the data were processed

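RNA was sequenced from 107 mouse tumors after depletion of ribosomal RNA. The authors trimmed reads with Trimmomatic 0.36, mapped them to mm10 with STAR 2.5.2b, estimated expression with RSEM 1.2.31 (Ensembl annotation) and deposited TPM for 50686 genes. Which tumor was run on which sequencer is not given in the sources used here. The depth per tumor is unknown, since TPM keeps none. Groups and replicates came from the labels.

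Values were analyzed as log2(TPM + 1) with limma 3.58.1 in R 4.3.3 and its trend option. A gene was tested where it averaged at least 1 TPM in the tumors of a fit, with Benjamini-Hochberg adjustment over all genes and a threshold of 0.05. The pseudocount understates changes of low genes. The 72 day 8 tumors gave the mean effect of LEN over models and the F test of its difference between models, the 71 untreated tumors the same for NT against Base, and 6 tumors each within-model test. The settings varied were the pseudocount (0.1), the minimum (none, or 5 TPM), the scaling of TPM (3 rescalings), the trend (left out), a block for replicate number, 1 fit of all day 8 tumors, and leaving out each tumor or model. Leaving out the 5 tumors under 40% protein-coding TPM, and each model against the other 11, were added after seeing the data.

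The members and lists were chosen with earlier results of these data known. Named genes are the 9 members, up to 4 called genes of each list with the smallest adjusted p, the most abundant gene of each list, the 3 genes nearest to each member, and markers beside the member they move with. Genes of the FGF co-receptor list whose call was lost without BNL are named too. Nothing in the labels says more of the origin of replicates than that they are separate tumors. Same-numbered NT and LEN tumors did not deviate together (20 pairs, r between -0.0802 and 0.0783), so the numbers do not pair them. Code was tested on simulated data. For the mean over 12 models, with the same change in each, limma recovered 98% of genes changed by 1 on the log2 scale. At a change of 0.5 it recovered 92%. Within a model of 6 tumors it recovered 27% at a change of 1 and 0% at 0.5. The difference between models, with the change in 1 model, was recovered for 48% and 1%. A missing call in these tests thus says little about changes of this size. Promoters are from RefSeq and positions from GENCODE. Protein sequences were not used here. Python 3.11.15, pandas 2.3.3, numpy 2.4.6 and matplotlib 3.10.9 were used.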

Additional observations from a re-analysis of the deposited data

Results flagged for a closer look

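The effect of LEN differed between the 12 models by the limma F test of the difference itself for Fgfr2 (adjusted p = 5.59e-12), Kitl (1.28e-08), Fgfr1 (1.39e-07), Fgf1 (0.00821), Ret (0.00884), Fgf2 (0.0290) and Kit (0.0344). Without BNL these adjusted p were 0.299 for Fgfr2, 0.898 for Fgf1, 0.591 for Fgf2, 0.0703 for Kitl and 0.0816 for Kit. Without B16-F10 that of Ret was 0.119. That of Kit was 0.283 without MC38 and 0.0580 without CT26.WT. Fgfr1 kept its call without any 1 model.

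The change from treatment-naive tumors to NT tumors on day 8 differed between models for Ret (adjusted p = 1.36e-09), Kitl (2.07e-07), Fgfr1 (1.94e-06), Fgfr2 (0.0148), Fgf2 (0.0284) and Fgf1 (0.0416). The call of Fgfr2 was lost without KLN205 (0.162) or Renca (0.0858), that of Fgf1 without LL/2 (0.587) or Renca (0.0597) and that of Fgf2 without Hepa 1-6 (0.106) or KLN205 (0.0715).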

How the results depend on the processing

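For LEN against NT over 12 models, 4 members were called. A minimum of 5 TPM left 3 members to test, of which 2 were called, and the replicate block left 1, Kitl. The block gave 2460 genes in all against 4083. It put Fgfr2 at 0.22 (adjusted p = 0.0698), Kit at -0.27 (0.157) and Ret at 0.10 (0.112), and in BNL Fgf2 at 1.06 (0.0938) and Kit at -0.70 (0.415); tumors whose number has no partner add nothing to it. For the difference between models, 7 members became 3 of 3 tested at a minimum of 5 and 4 with the block, and 6122 genes became 1861. Within models, 6 calls became 10 on rescaling over protein-coding genes and 10 with all 72 day 8 tumors in 1 fit, where 9246 genes became 14683. Outside BNL and B16-F10, the rescaling called Fgfr1 in KLN205 (-0.52, adjusted p = 0.0246) and Kit in Renca (-0.75, adjusted p = 0.0478). The 1 fit called Fgfr1 in KLN205 (-0.58, adjusted p = 0.00933) and Ret in Hepa 1-6 (+0.43, adjusted p = 0.0110). In Base, 7 members became 3 of 3 tested at a minimum of 5. For NT against Base, 2 members became 4 at a pseudocount of 0.1 or under any of the 3 rescalings, 1 with no minimum or without the tumors under 40% protein-coding, and 0 at a minimum of 5 or with the block, which took 4973 genes to 1912. Its difference between models went from 6 members to 3 at a minimum of 5, by the upper quartile and without 7S and 7SK RNA, and with the block from 11587 genes to 4964. The causes were not tested.

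Leaving out 1 tumor gave 4 members for the LEN mean (3882 to 4941 genes), 5 to 7 for its difference (5441 to 8663), 5 to 7 within models (7552 to 9606), 7 in Base (16325 to 16430), 1 to 3 for NT against Base (4338 to 5337) and 5 to 7 for its difference (11199 to 11937). Leaving out 1 model gave 1 to 5 (3163 to 4764 genes), 1 to 7 (3443 to 7744), 7 (16184 to 16432), 1 to 4 (3467 to 5652) and 4 to 7 (10425 to 11683). Without BNL, where 7 members were tested and Ret was not, the LEN mean left Kit and its difference left Fgfr1.

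The NT minus Base mean of Ret was near 0 and turned to -0.28 at a pseudocount of 0.1 (adjusted p = 0.0481), -0.026 by the upper quartile, -0.046 without 7S and 7SK RNA, -0.10 over protein-coding genes, -0.017 with the block and -0.029 without the tumors under 40% protein-coding. Leaving out a tumor or model, this mean lay between -0.012 and 0.033, that of Fgfr1 between -0.079 and 0.044 and that of Fgf1 reached -0.024 without LL/2. The LEN mean of Fgfr1 then lay between -0.030 and 0.12 and that of Fgf1 between -0.0030 and 0.18. Among called genes, the share higher under LEN was 58.1%, and 41.9%, 34.4% and 49.1% under the rescalings by upper quartile, without 7S and 7SK RNA and over protein-coding genes. The share higher in NT than in Base was 59.7%, and 28.7%, 30.2% and 23.3%. With TPM alone, the counting error of members near 1 TPM is unknown.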
